A study of Mus musculus with 6 samples.

Results

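The Arraystar mouse long noncoding RNA (lncRNA) array carries 1104 probes whose names begin with humanlincRNA, of 60915 probes that are not controls. They were selected by that name alone, with no use of their signal. Each name holds a lincRNA number, a plus or minus sign for the strand and the suffix _P1, and there are 549 plus and 555 minus probes. The names cover 557 numbers, of which 547 have a probe for each strand and 10 a probe for a single strand. What a human name stands for on a mouse array, and which mouse locus each probe was designed against, is stated in none of the sources used here. The probes are therefore called human-named lincRNA probes below, and no gene, coordinate or sequence is given for them. The array also carries 649 mouse-named lincRNA probes and 83 probes with lincRNA exon names, which served as the nearest comparison sets.

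Long intergenic noncoding RNAs (lincRNAs) are transcripts that lie between protein-coding genes and have no long open reading frame. Many are spliced and polyadenylated, and they are commonly less abundant, more restricted to a cell type and less conserved in sequence between human and mouse than messenger RNAs. Some act in the nucleus on chromatin, some bind proteins or microRNAs in the cytoplasm, and for most no function is known. Several lncRNAs, including H19 and linc-MD1, take part in muscle differentiation. Cobalt chloride (CoCl2) is used as a chemical mimic of hypoxia: cobalt ions inhibit the prolyl hydroxylases that mark hypoxia-inducible factors for degradation, so the factors accumulate at normal oxygen.

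The cells were C2C12, a line of mouse muscle precursors that stop dividing and join into myotubes in low serum, and every sample came from this line after differentiation in 2% horse serum. The control group of 3 samples is labelled with no treatment, and the CoCl2 group of 3 samples had 200 uM CoCl2 for 48 h before collection. The series' design text describes independent experiments in each group. The title asks about lncRNA levels in CoCl2 toxicity. Each sample was hybridised to its own one-colour array, so the number of arrays limits the precision of every value. Of 25 marker genes fixed for myotubes, myoblasts, fibroblasts, adipocytes and the response to hypoxia-inducible factors, 0 are named for a probe in the files, so neither the labelled cell type nor the response to CoCl2 was checked in this way. In such samples fewer cells of a type and less RNA per cell cannot be told apart.

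Control 1 and control 2 were scanned on day 1, each on a slide of its own, while control 3 and the 3 CoCl2 arrays shared slide 3 and were scanned on day 2. Slides were inferred from shared scan starts. Levels are the log2 processed signal minus the array's 75th percentile, so a level of 0 is the brightness of the probe at that percentile. Brightness also depends on how well each probe binds, and levels do not order the RNA amounts of different probes. A probe is called detected on an array where the scanner software marked it well above background, and a probe was tested if it was detected on at least 3 of the 6 arrays.

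Most human-named lincRNA probes gave no signal well above background in these myotubes. Of the 1104 probes, 838 (75.9%) were detected on 0 of the 6 arrays, against 37.5% of all probes. A further 141 (12.8%) were detected on all 6 arrays, against 47.0% of all probes. Between these ends, 36 probes were detected on 1 array, 26 on 2, 24 on 3, 18 on 4 and 21 on 5. In all 204 of 1104 probes (18.5%) passed the filter for testing and 900 did not. The same share was 19.7% for the mouse-named lincRNA probes (128 of 649), 34.9% for the exon-named probes (29 of 83) and 57.2% over all probes. The human-named and mouse-named sets thus stood close to each other and far below the array as a whole.

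Detection moved little between the groups. On controls 1, 2 and 3 the number of human-named probes detected was 179, 190 and 218, and on CoCl2 replicates 1, 2 and 3 it was 181, 196 and 219. Each CoCl2 array lay within 6 probes of the control with the same number, and the range over the controls was wider than the difference between the groups. Over all probes the detected share was 53.7%, 56.4% and 57.1% on the controls and 50.9%, 55.8% and 57.6% on the CoCl2 arrays. As a measure of false detection, spots with a name that marks them as negative were called well above background at 4.67% on control 1 and between 1.33% and 1.67% on the other arrays. The lowest level called well above background ran from -3.83 on CoCl2 replicate 3 to -3.12 on CoCl2 replicate 1.

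The strands were detected alike. Of the plus probes 99 of 549 (18.0%) were tested, and of the minus probes 105 of 555 (18.9%). Among the 547 numbers with a probe for each strand, neither probe was tested for 363, the plus probe alone for 80, the minus probe alone for 85 and both for 19. When 1 probe of a number was tested its partner was tested in 18.7% of cases, which is the share of tested probes among all members of such numbers (18.6%). For the mouse-named probes the corresponding shares were 23.4% and 20.2%. Most numbers with a tested probe thus had a single strand tested, with the plus and the minus sign about equally frequent. As the partner share is close to the share over all such members, this is not read as a trait of the strands.

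The tested human-named probes were dim. Their median level was -2.23 (quartiles -3.04 and -1.08), close to the -2.25 of the mouse-named probes and below the -0.54 of all tested probes. Mean levels under -3 were found for 26.0% of them against 12.8% of all tested probes, and mean levels of at least 1 for 10.8% against 32.9%. The brightest reached 6.23.

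CoCl2 treatment changed 63 of the 204 tested human-named probes (30.9%) at an adjusted p of 0.05, below the background of 47.6% of all tested probes. Of the 204, 46 were higher after CoCl2, where the background is 25.2%, and 17 were lower, where it is 22.4%. The share of rises was a little below its background and that of falls far below. Higher calls made up 73.0% of the changed members, 64.4% of the changed mouse-named probes and 52.9% of all changed probes. Of the 204, 22 were called with a fitted rise of at least 2-fold (background 12.4%) and 9 with such a fall (background 13.2%). That made 31 in all. Of these 31, 6 had no detection in one group, and for 2 of the 6 the lower bound on the change is under 2-fold. The count of 31 was 9 with normexp background correction and 14 with slide as a block. Among the 141 members detected on all 6 arrays, 41 changed (29.1%, background 45.3%). Of the 141, 12 were called at least 2-fold higher (background 11.7%) and 5 at least 2-fold lower (background 9.69%). The median fold change of the called probes, taken in either direction, was 1.94. The median log2 fold change of the tested human-named probes was 0.27, against 0.11 for all tested probes, and 140 of them (68.6%) had a positive value, against 55.9% of all. Without adjustment, 79 members passed p under 0.05. Single arrays moved these counts: without CoCl2 replicate 3, 38 members changed (28 higher and 10 lower), without control 2, 29 were higher and the median log2 fold change was 0.16, and without control 3, 9 were lower.

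Plus and minus probes gave like counts. Among plus probes 29 changed, 21 higher and 8 lower, with a median log2 fold change of 0.26. Among minus probes 34 changed, 25 higher and 9 lower, with a median of 0.33. Of the tested mouse-named probes 45 of 128 (35.2%) changed, 29 higher and 16 lower, with a median of 0.16, and of the exon-named probes 15 of 29 (51.7%) changed. Both lincRNA-named sets therefore held fewer calls per tested probe than the array. In both the higher calls outnumbered the lower ones by more than over all probes.

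The low share of calls was found at every brightness. Human-named probes with a mean level under -3 were called in 14 of 53 cases (26.4%), against 46.7% of all probes in that range. Between -3 and -1 the count was 32 of 100 (32.0% against 44.2%), between -1 and 1 it was 9 of 29 (31.0% against 49.1%), and at 1 or more it was 8 of 22 (36.4% against 50.1%). The median log2 fold change in these ranges was 0.22, 0.21, 0.32 and 0.59 for the human-named probes and -0.01, 0.09, 0.09 and 0.18 for all probes. Dim and bright members alike were on balance shifted upward relative to all probes of their own brightness, and the brightest range had the largest shift.

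The groups did not overlap for 81 of the 202 tested members with a value on all 6 arrays (40.1%), with every CoCl2 value above every control for 59 and below for 22. The background for such separation is 59.5%. Of the 63 called probes 59 were separated in this way. The 4 others, humanlincRNA0267-_P1, humanlincRNA1050+_P1, humanlincRNA0479+_P1 and humanlincRNA2338+_P1, passed the test with overlapping groups.

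Comparing the CoCl2 arrays with control 3, the control on the same slide, left fewer calls among the 204 tested members. With slide as a block 14 members passed, 8 higher and 6 lower, against a background of 15.6%, and 13 of them belonged to the 63. The 14 include humanlincRNA0825-_P1, humanlincRNA0900-_P1, humanlincRNA1278-_P1, humanlincRNA2017-_P1 and humanlincRNA1159+_P1, each detected in one group only. These reached the filter through their bright group alone, and their dim-group values are readings below detection. Blocking by scan day gave 22 calls, 21 of which belonged to the 63, against a background of 21.6%. All 63 called probes kept the sign of their change with slide as a block, as did 178 of the 204 tested members. For 62 of the 63 every CoCl2 array lay beyond control 3. The fit that chose the 63 used these same arrays, and for the 59 separated probes both outcomes were fixed in advance. They therefore add no support to the calls. The slide-blocked fit estimates the spread from 2 residual degrees of freedom, those of the CoCl2 arrays, so a lost call does not show a smaller change. A kept call rests on control 3 alone and takes no account of the spread between controls. The part of slide and scan day in the other calls was not tested.

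The control arrays did not rank alike for these probes. Control 2 gave the lowest of the 3 control values for 117 of the 204 tested human-named probes (57.4%), for 50.8% of the mouse-named probes and 14 of 28 exon-named probes, but for 27.3% of all probes. At mean levels of at least 1 it was the lowest for 15 of 22 human-named probes (68.2%), against 15.4% of all probes that bright. Within the CoCl2 group, replicate 1 was the highest for 62.9% of the human-named probes and for 50.2% of all. The median deviation from the control mean was 0.12, -0.16 and 0.06 for controls 1, 2 and 3, and 0.40, 0.19 and 0.28 for CoCl2 replicates 1, 2 and 3. Each CoCl2 median thus lay above each control median, with CoCl2 replicate 2 and control 1 the nearest. That each CoCl2 median lay above each control median held also for the mouse-named probes and for all tested probes. The ranking among the controls differed over all tested probes. For the exon-named probes the CoCl2 replicate 3 median (-0.0018) lay below that of control 1 (0.078). Over all tested probes the medians were 0.027, 0.005 and -0.015 for controls 1, 2 and 3. For CoCl2 replicates 1, 2 and 3 they were 0.144, 0.073 and 0.103. Without control 2, 43 members changed, 29 of them higher, and the median log2 fold change of the tested members was 0.16.

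Falls were fewer than rises, but the lowest adjusted p of any called member belonged to a fall. The probe humanlincRNA0065-_P1 is the clearest. Its level was 4.89, 5.00 and 4.93 on controls 1, 2 and 3, and 2.99, 2.94 and 2.92 on CoCl2 replicates 1, 2 and 3. The control arrays agree to within a small fraction of the gap, and the groups are far apart. Its mean fell from 4.94 ± 0.059 (SD, n = 3) to 2.95 ± 0.038 (SD, n = 3), a log2 fold change of -1.99 (SE 0.13) with a limma adjusted p of 5.0e-05. With slide as a block the change was -1.98 and the adjusted p 0.0165. It was the only one of the 5 brightest human-named probes that fell past the threshold.

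The next largest fall among probes detected on all 6 arrays was that of humanlincRNA1747+_P1. It read -0.828, -1.081 and -1.003 on the controls and -2.20, -2.10 and -2.24 on the CoCl2 arrays. The groups were more than 1 unit apart at their nearest points. The log2 fold change was -1.21 (SE 0.14, adjusted p = 0.00051), and -1.17 with slide as a block (adjusted p = 0.0297). The probe humanlincRNA0305-_P1 read -0.17, -0.57 and -0.33 on the controls and -1.24, -1.47 and -1.39 on the CoCl2 arrays. All CoCl2 values were again below all controls. The change was -1.01 (SE 0.16, adjusted p = 0.0020), and -1.04 in the slide-blocked fit.

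Another pair of probes fell at least 2-fold by the comparison of group means but missed the threshold with slide as a block. The probe humanlincRNA0806+_P1 read -0.77, -1.13 and -1.25 on the controls and -2.31, -2.06 and -2.13 on the CoCl2 arrays, a change of -1.12 (SE 0.17, adjusted p = 0.0019, and 0.0506 blocked by slide). The probe humanlincRNA1543-_P1 read -1.79, -1.90 and -1.60 on the controls and -2.49, -2.80 and -3.06 on the CoCl2 arrays, a change of -1.02 (SE 0.19, adjusted p = 0.0038, and 0.0635 blocked by slide). Neither had an overlap between the groups.

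Among the 12 largest falls detected on all arrays the other 7 were under 2-fold. The log2 fold change was -0.74 for humanlincRNA1362-_P1, -0.66 for humanlincRNA2294+_P1, -0.64 for humanlincRNA0635+_P1, -0.59 for humanlincRNA2242+_P1, -0.54 for humanlincRNA0502-_P1, -0.48 for humanlincRNA2149-_P1 and -0.45 for humanlincRNA1728-_P1. Their adjusted p ran from 0.0072 to 0.0439, and the groups did not overlap for any of the 7. Their slide-blocked adjusted p ran from 0.0534 to 0.203. Except for humanlincRNA1362-_P1, each of these lost the call when some single array was left out. The call of humanlincRNA0502-_P1 went without control 2 (-0.61, adjusted p = 0.0536), control 3 (-0.41, 0.1002), CoCl2 replicate 2 (-0.50, 0.0710) or CoCl2 replicate 3 (-0.51, 0.120). That of humanlincRNA0635+_P1 went without control 1 (-0.51, 0.0662), control 3 (-0.60, 0.0978), CoCl2 replicate 2 (-0.61, 0.0616) or CoCl2 replicate 3 (-0.61, 0.104).

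The remaining 4 of these small falls behaved likewise. The call of humanlincRNA2294+_P1 went without control 1 (-0.53, 0.0707), control 3 (-0.62, 0.0981), CoCl2 replicate 2 (-0.67, 0.0507) or CoCl2 replicate 3 (-0.56, 0.118). That of humanlincRNA2149-_P1 went without control 1 (-0.47, 0.0640), control 3 (-0.39, 0.130), CoCl2 replicate 2 (-0.47, 0.0789) or CoCl2 replicate 3 (-0.42, 0.160). That of humanlincRNA1728-_P1 went without control 2 (-0.40, 0.135), control 3 (-0.45, 0.106), CoCl2 replicate 1 (-0.35, 0.108) or CoCl2 replicate 3 (-0.46, 0.131). For humanlincRNA2242+_P1 it went without control 3 (-0.50, 0.0505) or CoCl2 replicate 3 (-0.59, 0.0622). In each of these cases the direction stayed and the size moved little, while the adjusted p crossed the threshold. With normexp background correction humanlincRNA0502-_P1 (-0.30, 0.102) and humanlincRNA1728-_P1 (-0.35, 0.0577) also missed it, and with median scaling so did humanlincRNA1728-_P1 (-0.42, 0.0766).

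The largest rise among probes detected on all 6 arrays was that of humanlincRNA0324-_P1. It read 2.42, 1.70 and 2.16 on the controls and 5.04, 3.86 and 4.18 on the CoCl2 arrays. The lowest CoCl2 value was well above the highest control. Its mean went from 2.09 ± 0.36 (SD, n = 3) to 4.36 ± 0.61 (SD, n = 3), a log2 fold change of 2.27 (SE 0.33, adjusted p = 0.0014) or 4.82-fold. With slide as a block the change was 2.20 and the adjusted p 0.0629.

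The probe humanlincRNA1739+_P1 is among the brightest members and had the widest spread between controls of any probe described here. It read 5.78, 2.95 and 4.87 on the controls and 6.66, 6.13 and 6.56 on the CoCl2 arrays. Control 2 stood far below the other controls, and control 1 lay near the CoCl2 values. The log2 fold change was 1.91 (SE 0.64, adjusted p = 0.0431), and 1.57 with slide as a block (adjusted p = 0.0398). The call went without control 3 (2.08, 0.0852), CoCl2 replicate 1 (1.81, 0.0792) or CoCl2 replicate 3 (1.86, 0.0970). It also went with quantile normalization (1.71, 0.0670) and with scan day as a block (1.57, 0.276).

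Several dimmer probes rose with tighter controls. The probe humanlincRNA0132+_P1 read -2.77, -2.75 and -2.60 on the controls and -0.56, -1.32 and -0.97 on the CoCl2 arrays, a change of 1.76 (SE 0.21, adjusted p = 0.00059, and 0.0519 blocked by slide). The probe humanlincRNA1132-_P1 read -2.78, -2.50 and -2.17 on the controls and -0.56, -1.02 and -0.75 on the CoCl2 arrays, a change of 1.71 (SE 0.20, adjusted p = 0.00061, and 0.0397 blocked by slide). The probe humanlincRNA1230-_P1 read -2.34, -1.93 and -1.81 on the controls and -0.28, -0.71 and -0.62 on the CoCl2 arrays, a change of 1.49 (SE 0.20, adjusted p = 0.00095, and 0.0443 blocked by slide). In all of these the groups were about 1 unit apart or more, and CoCl2 replicate 1 gave the highest value.

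The probe humanlincRNA1596+_P1 read -2.55, -3.36 and -2.91 on the controls and -0.82, -1.50 and -1.71 on the CoCl2 arrays, a change of 1.60 (SE 0.29, adjusted p = 0.0038). The probe humanlincRNA0817+_P1 read -1.94, -2.34 and -1.96 on the controls and -0.46, -1.27 and -0.85 on the CoCl2 arrays, a change of 1.22 (SE 0.23, adjusted p = 0.0047). The probe humanlincRNA1468+_P1 read -1.74, -2.04 and -1.77 on the controls and -0.60, -0.84 and -1.04 on the CoCl2 arrays, a change of 1.02 (SE 0.17, adjusted p = 0.0026). The groups did not overlap for these plus-strand probes, and each missed the threshold in the slide-blocked fit (adjusted p 0.0732, 0.108 and 0.0700).

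Brighter rises included humanlincRNA0238-_P1, which read 0.98, 0.82 and 0.82 on the controls and 2.27, 1.80 and 2.00 on the CoCl2 arrays. The controls differed by far less than the gap, and the change was 1.15 (SE 0.16, adjusted p = 0.0013). Against control 3 alone it was 1.20, with an adjusted p just above the threshold. The probe humanlincRNA1050+_P1 read 1.57, 0.78 and 0.95 on the controls and 2.84, 1.42 and 2.28 on the CoCl2 arrays, a change of 1.08 (SE 0.37, adjusted p = 0.0474). The probe humanlincRNA2338+_P1 read -2.71, -3.65 and -3.37 on the controls and -0.81, -2.87 and -1.72 on the CoCl2 arrays, a change of 1.45 (SE 0.50, adjusted p = 0.0482). For the last pair CoCl2 replicate 2 lay below control 1, so the groups overlapped.

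These rises with overlapping groups depended on single arrays, and with slide as a block their adjusted p was 0.200 and 0.232. The call of humanlincRNA1050+_P1 went without control 2 (0.92, adjusted p = 0.149), control 3 (1.01, 0.135), CoCl2 replicate 1 (0.75, 0.0974) or CoCl2 replicate 3 (1.03, 0.115). That of humanlincRNA2338+_P1 went without control 1 (1.71, 0.0526), control 2 (1.24, 0.149), control 3 (1.38, 0.131), CoCl2 replicate 1 (0.95, 0.0860) or CoCl2 replicate 3 (1.41, 0.108), and with normexp background correction (0.85, 0.0609). The last of the 12 largest rises, humanlincRNA1211+_P1, is given with its minus partner below. Of these 24 rises and falls, 9 lost the call without at least 1 array and 6 passed with slide as a block. Another 25 rises outside the lists had log2 fold changes of 0.38 to 1.68, and another 2 falls had changes of -1.32 and -0.72. The 141 tested members that missed the threshold had changes between -0.86 and 1.58.

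A few probes were detected on every array of one group and on no array of the other. Of the 1104 members 6 (0.543%) were detected only after CoCl2, against a background of 1.0% of all probes, and 2 (0.181%) only in the controls, against 1.5%. These 8 probes reached the filter for testing through the bright group alone, and 7 of them are among the 63 called. Their readings in the dim group lie below detection. Every adjusted p given below for them, in the main, blocked and normexp fits, therefore adds no support beyond the detection pattern that chose them. Since the dim group has only an upper limit, the change is given as a lower bound on the difference between group means. It is set by the lowest signal called well above background on those arrays or by the probe's own reading where that was higher.

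The strongest bound for a probe detected only after CoCl2 belonged to humanlincRNA1211-_P1. It read -4.77, -5.00 and -4.25 on the controls, all below detection, and -1.69, -2.73 and -2.20 on the CoCl2 arrays. It was at least 2.74-fold higher after CoCl2 (adjusted p = 0.00069). The probes humanlincRNA0825-_P1 and humanlincRNA0900-_P1 were each at least 2.08-fold higher, with adjusted p of 0.0022 and 0.00043. The former read -2.39, -2.94 and -2.47 on the CoCl2 arrays and the latter -2.45, -2.94 and -2.41, both clear of the detection limit. The probe humanlincRNA1278-_P1 had the dimmest controls, at -5.51, -6.03 and -5.92, against -2.76, -3.55 and -3.18 after CoCl2. By its mean it was at least 1.41-fold higher (adjusted p = 0.00018), but CoCl2 replicate 2 lay below the detection limit of control 1 (-3.42). The last pair lay nearer the limit. By its mean humanlincRNA1852-_P1 was at least 1.28-fold higher (adjusted p = 0.0064), with CoCl2 replicates 2 and 3 (-3.44 and -3.51) below the limit of control 1. Also by its mean, humanlincRNA1612+_P1 was at least 1.28-fold higher, without passing the test (adjusted p = 0.157). In the slide-blocked fit humanlincRNA0825-_P1, humanlincRNA0900-_P1 and humanlincRNA1278-_P1 passed (adjusted p 0.0297, 0.0372 and 0.0250), while humanlincRNA1211-_P1 (0.0560) and humanlincRNA1852-_P1 (0.132) did not. With normexp background correction humanlincRNA1852-_P1 also missed the threshold (0.35, 0.0822). All but the last of these 6 probes are minus-strand probes.

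Detection in the controls alone was seen for humanlincRNA2017-_P1 and humanlincRNA1159+_P1. The former read -2.37, -2.26 and -2.19 on the controls and -4.18, -3.89 and -3.94 on the CoCl2 arrays, and was at least 2.40-fold lower after CoCl2 (adjusted p = 0.00014). The latter read -2.68, -3.66 and -3.26 on the controls and -4.41, -4.57 and -4.50 on the CoCl2 arrays, and was at least 1.27-fold lower (adjusted p = 0.0047). The readings are separated in both, but humanlincRNA1159+_P1 lies close to the detection limit. That limit was -3.12, -3.67 and -3.83 on CoCl2 replicates 1, 2 and 3. All controls of humanlincRNA2017-_P1 lay above these limits, while controls 2 and 3 of humanlincRNA1159+_P1 lay below that of replicate 1. With normexp background correction the change of humanlincRNA1159+_P1 was -0.14 with an adjusted p of 0.534. Both probes passed in the slide-blocked fit (adjusted p 0.0217 and 0.0283), and with scan day as a block humanlincRNA1159+_P1 did not (0.0695). These fits too set control signal against CoCl2 readings below detection.

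The 5 brightest human-named probes were humanlincRNA2397+_P1, humanlincRNA2438+_P1, humanlincRNA1739+_P1, humanlincRNA2330+_P1 and humanlincRNA0065-_P1, 4 of them plus-strand probes. The probe humanlincRNA2397+_P1 read 6.84, 4.62 and 5.51 on the controls and 6.98, 6.51 and 6.90 on the CoCl2 arrays, a difference of 1.14 (SE 0.51) that did not pass (adjusted p = 0.0992). It did pass in the slide-blocked fit (1.29, adjusted p = 0.0483), where controls 1 and 2 no longer enter the difference. The probe humanlincRNA2330+_P1 read 5.62, 4.11 and 4.46 on the controls and 5.62, 5.15 and 5.60 on the CoCl2 arrays, a difference of 0.72 (SE 0.38, adjusted p = 0.150). Without control 1 both passed, humanlincRNA2397+_P1 at 1.73 (adjusted p = 0.0073) and humanlincRNA2330+_P1 at 1.17 (adjusted p = 0.0081). In both, as in humanlincRNA1739+_P1, control 1 was the highest and control 2 the lowest control, and CoCl2 replicate 2 was the lowest of the CoCl2 arrays.

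The probe humanlincRNA2438+_P1 varied less by contrast, although every CoCl2 value lay below every control. It read 6.26, 6.27 and 6.07 on the controls and 6.06, 5.89 and 5.96 on the CoCl2 arrays, a difference of -0.23 (SE 0.14, adjusted p = 0.198). The wide spread between controls of the other bright plus-strand probes was not seen here, where the SD of the controls was 0.11 against 1.45 for humanlincRNA1739+_P1. With quantile normalization the difference was -0.48 and passed (adjusted p = 0.0173), and the authors' deposited value table gave the same rounded values.

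For 19 lincRNA numbers both the plus and the minus probe were tested, and the difference between them on one array does not depend on the array's scaling. Both probes were called for 4 numbers, 1 probe for 5 and neither for 10. The log2 fold changes of the probes had the same sign for 12 numbers, 11 with both higher and 1 with both lower, and opposite signs for 7. The plus-minus difference moved by a median of -0.11 after CoCl2 (0.021 with normexp background correction). Its measured control and CoCl2 values did not overlap for 7 numbers, and for 3 of these both probes were detected on all 6 arrays. The counts of like signs and of separated differences have no background from other probe pairs here. They are therefore not read as a trait of these numbers. Only the change of the plus-minus difference between groups is read here, since its sign also depends on how each probe binds. The plus and minus probes of a number share a name and are not replicates of each other, and no source used here says whether they lie on one locus.

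The number 0373 showed opposite changes on its strands. The plus probe, humanlincRNA0373+_P1, read -2.25, -1.55 and -1.54 on the controls and -3.68, -3.38 and -3.63 on the CoCl2 arrays. The minus probe, humanlincRNA0373-_P1, read -3.37, -3.74 and -3.33 on the controls and -2.19, -2.74 and -2.46 on the CoCl2 arrays. All CoCl2 values of the plus probe lay below its controls and all those of the minus probe above its controls. The plus probe fell by 1.78 on the log2 scale (SE 0.22, adjusted p = 0.00076) and the minus probe rose by 1.02 (SE 0.20, adjusted p = 0.0050). The plus-minus difference was 1.13, 2.19 and 1.79 in the controls and -1.49, -0.63 and -1.16 after CoCl2, a shift of -2.79. Both probes were near the detection limit in their dim group, where the plus probe was detected on 2 of 3 CoCl2 arrays and the minus probe on 2 of 3 controls. Blocked by slide, the fall of the plus probe passed (-2.01, adjusted p = 0.0197) and the rise of the minus probe did not (0.87, adjusted p = 0.102).

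The number 1747 shifted in the same direction. The plus-minus difference was 1.16, 2.06 and 2.02 in the controls and -0.18, 0.40 and -0.24 after CoCl2, a shift of -1.75 with no overlap. The plus probe gave the second largest fall above. The minus probe, humanlincRNA1747-_P1, read -1.98, -3.14 and -3.02 on the controls and -2.02, -2.50 and -2.00 on the CoCl2 arrays, and did not pass (0.55, SE 0.32, adjusted p = 0.197). Its control 1 value was level with the CoCl2 arrays, and without control 1 the probe passed (0.91, adjusted p = 0.0141).

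For the numbers 1211 and 2159 both strands passed the test as higher after CoCl2. The probe humanlincRNA1211+_P1 read 0.53, 0.51 and 0.86 on the controls and 1.93, 1.55 and 1.71 on the CoCl2 arrays, a change of 1.09 (SE 0.17, adjusted p = 0.0020, and 0.0721 blocked by slide), while its minus partner appeared only after CoCl2. With the minus probe at the detection limit, the plus-minus difference was at least 3.95, 4.32 and 4.62 in the controls, against 3.62, 4.28 and 3.91 after CoCl2. These ranges overlap, so the data do not show that the strands of this number changed by unequal amounts. The probe humanlincRNA2159+_P1 read -3.58, -3.92 and -3.40 on the controls and -1.86, -2.25 and -2.09 on the CoCl2 arrays, with a fitted change of 1.57 (SE 0.19, adjusted p = 0.00059, and 0.0369 blocked by slide). It was detected on 1 of 3 controls, so this size and the strand difference rest in part on readings below detection. The probe humanlincRNA2159-_P1 read -1.60, -2.29 and -1.84 on the controls and -0.68, -1.25 and -0.95 on the CoCl2 arrays, a change of 0.95 (SE 0.23, adjusted p = 0.0127, and 0.104 blocked by slide). The groups did not overlap for the plus or the minus probe, and the plus-minus difference went from -1.98, -1.62 and -1.57 to -1.185, -0.996 and -1.143.

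For the number 2473 the minus strand alone passed. The probe humanlincRNA2473-_P1 read -2.26, -2.28 and -2.07 on the controls and -1.55, -1.46 and -1.48 on the CoCl2 arrays, a change of 0.71 (SE 0.13, adjusted p = 0.0045, and 0.0835 blocked by slide). The plus probe, humanlincRNA2473+_P1, gave a difference of -0.01 (SE 0.21, adjusted p = 0.977), and its groups overlapped. The plus-minus difference was -0.46, -0.44 and -0.27 in the controls and -1.45, -0.90 and -0.98 after CoCl2, with no overlap.

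The other pairs among the 8 with the largest shifts held no call. For the number 0367 the plus-minus difference was -0.57, -0.71 and -0.92 in the controls and -1.74, -0.92 and -1.27 after CoCl2, where control 3 was level with CoCl2 replicate 2. For the number 1612 it was -1.17, -0.03 and -0.69 in the controls and 0.68, 0.85 and -0.16 after CoCl2. For the number 2397 it was 5.54, 3.69 and 4.42 in the controls and 5.25, 5.24 and 5.41 after CoCl2. The last 2 overlapped between the groups. The minus partner of the brightest member, humanlincRNA2397-_P1, read 1.30, 0.92 and 1.09 on the controls and 1.73, 1.28 and 1.496 on the CoCl2 arrays, with a difference of 0.39 (adjusted p = 0.102).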

How the data were processed

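RNA of 3 control and 3 CoCl2 samples was measured on 1 array each, and samples were grouped by the titles and treatments in the labels. The labels' protocols describe removal of ribosomal RNA, amplification by random priming and labelling with Cy3. The deposited scanner files hold spot intensity on a linear scale. Background was subtracted with spatial detrending in Agilent Feature Extraction 11.0.1.1, per the file headers, which also record flags for spots well above background. The authors' deposited value table is on the log2 scale, and its making is described in none of the sources used here. It served as an alternative.

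Control spots, negative-named spots and spots flagged as outliers were left out. Repeated spots were averaged as log2 values, and a probe with several spots counted as detected when at least 50% were well above background. The 34839 tested probes were fitted in limma 3.58.1 (R 4.3.3, two-sided, 4 residual degrees of freedom) with Benjamini-Hochberg adjustment over all of them, and 16580 passed 0.05. All adjusted p values come from limma. Tables used Python 3.11.15. The named probes are the 12 largest rises and 12 largest falls among called probes detected on all 6 arrays, all probes detected in one group alone, the 5 brightest, the 8 numbers with the largest strand shift and those passing with slide as a block. The members and lists were chosen with earlier results of these data known. The array design is annotated to mm9.

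The alternatives were 3 filters on dim probes, 3 other scalings, normexp background correction with an offset of 50, the authors' table, slide, scan day and replicate number as blocks, array weights, eBayes with trend and robust settings, and leaving out each array in turn.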

Additional observations from a re-analysis of the deposited data

Results flagged for a closer look

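Among the 900 human-named lincRNA probes that were too rarely detected to be tested, 8 (0.725%) were well above background on 2 of the 3 CoCl2 arrays and on 0 of the 3 controls, against 1.07% of all probes. The mirrored pattern, 2 controls and 0 CoCl2 arrays, was seen for 11 human-named probes (0.996%), against 0.982% of all probes, so detection on 2 arrays was not more frequent after CoCl2. The former 8 were listed because their signal lies outside the tested set. Their differences, CoCl2 minus control, are taken against controls below the detection limit. They are given as readings with no test and no order, since the detection pattern that chose the probes fixes their direction. The difference read 0.48 on the log2 scale for humanlincRNA0183-_P1, 0.66 for humanlincRNA0574+_P1, 1.19 for humanlincRNA0622-_P1 and 1.04 for humanlincRNA0854+_P1. It read 2.55 for humanlincRNA1222+_P1, 0.70 for humanlincRNA1586+_P1, 1.65 for humanlincRNA1907-_P1, which has a value on 2 of the 3 controls, and 1.15 for humanlincRNA2091+_P1.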

How the results depend on the processing

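Of 861 values of the 46 named probes under alternatives, 750 kept their direction and side of the threshold, 91 lost the call, 14 gained one and 6 changed sign. All sign changes were of humanlincRNA2473+_P1, at -0.01 as reported, which gave 0.012 with quantile normalization and with the authors' table, 0.023 with median scaling, 0.040 with normexp and -0.13 (without CoCl2 replicate 2) to 0.19 (without CoCl2 replicate 1) with 1 array left out. The count of changed human-named probes (63, with 46 higher, 17 lower and 31 at least 2-fold) was 14 with slide as a block (8, 6 and 14), 22 with scan day as a block (13, 9 and 16) and 132 with array weights (98 higher, 34 lower), which ran from 0.21 for control 1 to 16.8 for CoCl2 replicate 3. Over all probes the count went from 16580 to 5450, 7510 and 26511. The lower count was 27 with detection on 1 array and 29 with no filter. The 2-fold count was 18 with detection on all 6 arrays, 59 with no filter and 9 with normexp. The median log2 fold change was 0.070 with no filter. A looser detection flag (positive and significant against background) gave 442 probes in place of 204. The median strand shift of -0.11 was 0.021 with normexp. With a single array left out, the counts were 38 to 78 changed, 28 to 63 higher, 9 to 16 lower, 23 to 39 at least 2-fold and 11491 to 17538 over all probes. It gave medians of 0.16 to 0.32, 184 to 198 detected probes and strand shifts of -0.16 to -0.05. The causes were not tested. Precision is limited by 3 arrays per group, and most members lie below or near background.

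With replicate number as a replicate block, 82 human-named probes changed (65 higher, 17 lower) and 18765 over all probes. The series' design text gives no pairing of the samples by number. Deviations of same-numbered arrays correlated at 0.30, 0.36 and -0.03. Controls 1 and 2 correlated best with the CoCl2 array of the same number, while control 3 correlated best with CoCl2 replicate 2 (0.18).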
